A study of Mus musculus with 20 samples.

Results

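The coelomic epithelium (CE) of the genital ridge at E11.5 was taken as the cells that the authors' cell table annotates as coelomic epithelium and places at E11.5, which gave 2569 of the 94705 cells of the series and of the 16670 cells of E11.5. These cells came from 4 single-cell libraries, with 413 cells from XX replicate 1, 657 from XY replicate 1, 298 from XX replicate 2 and 1201 from XY replicate 2. The study followed the somatic and germ cells of the mouse gonad from E10.5 to E16.5 in XX and XY embryos. All embryos came from CD-1 outbred females mated with males heterozygous for Tg(Nr5a1-GFP), a transgene in which Nr5a1 regulatory sequence drives GFP, so every group compared here shared this background. Whether every embryo carried the transgene was not given in the sources used here. At E10.5 and E11.5 the whole urogenital ridge, with the mesonephros, was dissociated and loaded without sorting on a 10x Genomics droplet instrument with 3′ chemistry, and genetic sex was assigned by PCR. There were 2 XX and 2 XY libraries at each stage, and the XX and XY libraries with the same replicate number carry the same numeric prefix in their titles. It is read here as a date and called the library date, though the titles do not say what it dates. By its label a library holds cells of 1 sex and title prefix, and the labels used here do not say how many embryos were pooled, so p-values measure the spread between libraries. Where library was a block, p-values measure how the differences within libraries vary from library to library. In the gene tests these spreads were estimated partly from all genes together, not from each gene alone.

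The coelomic epithelium is the mesothelial sheet that covers the medial face of the mesonephros. Where the gonad forms, it thickens, its cells divide, and part of them lose their epithelial character and move inward to give supporting and interstitial precursors of the testis or ovary. The transcription factors GATA4, LHX9, EMX2, WT1 and NR5A1 are required for this step, whereas UPK3B, a uroplakin membrane protein, marks mesothelial surfaces.

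The annotation was first compared with 5 markers of this epithelium. On the GENCODE M21 annotation of GRCm38, Upk3b lies on chromosome 5 (136038496 to 136046487), Lhx9 on chromosome 1 (138825186 to 138848577), Emx2 on chromosome 19 (59458372 to 59465357), Nr5a1 on chromosome 2 (38692656 to 38714542) and Gata4 on chromosome 14 (63198922 to 63271692). Each cell was thinned to 10000 unique molecular identifiers (UMIs, counted mRNA molecules), which left out 110 of the E11.5 CE cells. A UMI of Lhx9 was then found in 88.1% of the remaining cells, of Gata4 in 62.2%, of Emx2 in 48.0%, of Nr5a1 in 40.3% and of Upk3b in 32.7%. In endothelial cells of the same libraries, which should lack these genes, the shares were 13.7%, 5.58%, 5.58%, 8.12% and 2.54%. All 5 shares in the CE were above those in endothelial cells, where free RNA, doublets and expression cannot be told apart. The authors named their clusters by known marker genes, so these shares describe the annotation and are no independent check of it. At least 3 of the 5 markers were detected in 58.2% of E11.5 CE cells, all 5 in 4.84% and none in 3.42%.

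Of the 5 markers, Upk3b varied most between the libraries, with a UMI in 25% of the CE cells of the lowest library and in 45.4% of those of the highest. Lhx9 varied least, between 87.3% and 89.8%. In presupporting cells of E11.5, the precursors of Sertoli and pregranulosa cells, Upk3b was detected in 7.39% of cells, Lhx9 in 72.1%, Emx2 in 56.0%, Nr5a1 in 70.3% and Gata4 in 87.5%. Without thinning, Upk3b was detected in 39.7% of the 2459 E11.5 CE cells that had at least 10000 UMIs.

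**Figure D1:**
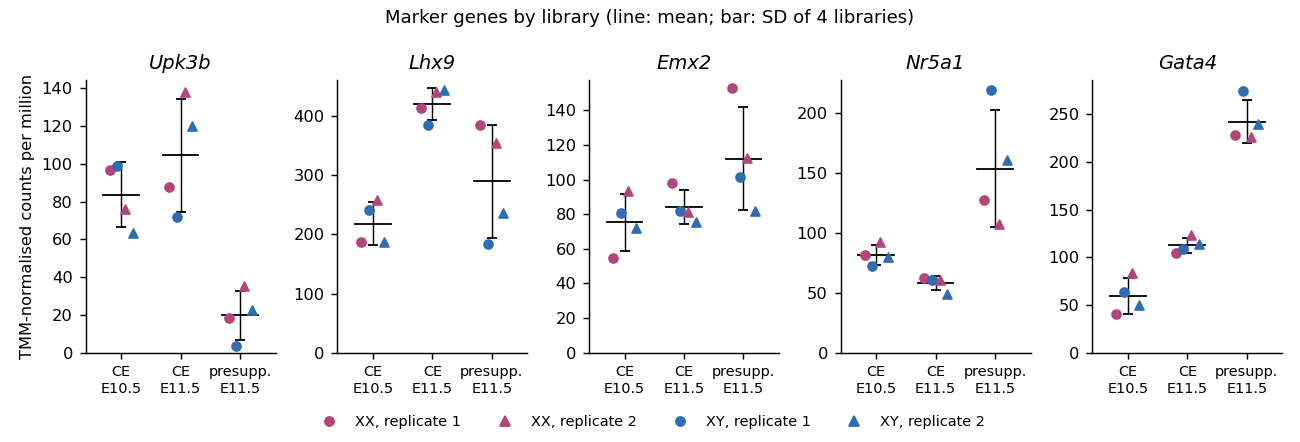
Levels of the 5 markers in counts per 1000000 UMIs (CPM, linear axes from 0) in each library for the CE of E10.5, the CE of E11.5 and the presupporting cells of E11.5, with 4 libraries each. Points are libraries, bars give the mean and SD. Lhx9 lies between 385 and 444 in the E11.5 CE and below 260 in every E10.5 library, while the ranges of Upk3b and Emx2 overlap between the stages.

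Sums per library held between 6552728 and 25354605 UMIs in the CE of E11.5 and between 4114303 and 20793522 in that of E10.5, with a median of 18616 to 21075 UMIs per cell at E11.5 and 23540.5 to 26956.5 at E10.5. The smallest sum was that of E10.5 XX replicate 1, with 140 cells. In the authors' clustering, 2553 of the 2569 E11.5 CE cells lay in cluster 16 and all 2335 E10.5 CE cells in cluster 18, so a gene that differs between the stages may be among those that separated these clusters. Stage and library date cannot be told apart. Among E11.5 CE cells, 20 of 298 in XX replicate 2 and 35 of 1201 in XY replicate 2 carried sex-linked UMIs that go against the label of their library, and 0 did in the other CE libraries, which allows a share of up to 0.726% of the 413 cells of XX replicate 1. Of the CE cells against the label, 13 in XX replicate 2 and 21 in XY replicate 2 carried only the other sex's UMIs of these genes. No pair of the 8 libraries shared more than 41 cell barcodes, which was at most 1.05% of the smaller library.

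The first comparison asked what distinguished the CE of E11.5 from that of E10.5. UMIs were summed over the CE cells of each library, and levels are given as CPM of TMM-scaled library sizes, in the library order XX replicate 1, XY replicate 1, XX replicate 2 and XY replicate 2. Of 16287 genes tested, 4701 (28.9%) were called with edgeR's quasi-likelihood test (Benjamini-Hochberg adjusted p under 0.05 with a fold change past 0.361 on the log2 scale in either direction), of which 2566 (15.8%) were higher and 2135 (13.1%) lower at E11.5. The levels of the 4 and 4 libraries did not overlap for 35.1% of the genes tested. A sum cannot tell a change in the share of cells that express a gene from a change in its level per cell.

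Of the markers, Lhx9 and Gata4 rose and Nr5a1 fell. Lhx9, a LIM homeobox factor without which no gonad forms, was at 187, 242, 258 and 187 CPM at E10.5 and at 413, 385, 441 and 444 at E11.5, a log2 fold change of 0.94 (SE 0.12, n = 4 and 4, adjusted p = 0.000498 in edgeR). Gata4, the zinc finger factor that is needed for the first thickening of the ridge, was at 40.2, 63.5, 83.3 and 49.6 CPM and then at 105, 109, 123 and 114 (0.92, SE 0.19, adjusted p = 0.00506). The lowest E11.5 library lay above the highest E10.5 library for both genes. Nr5a1 encodes the nuclear receptor SF1, and its regulatory sequence drives GFP in the transgene of the sires. Nr5a1 was at 81.9, 72.4, 92.3 and 79.7 CPM at E10.5 and at 62.2, 60.7, 60.6 and 49.4 at E11.5 (-0.49, SE 0.09, adjusted p = 0.0038 in edgeR), again without overlap. The call was lost in XX or in XY libraries alone and with the libraries of a date summed, and that of Gata4 in XX libraries alone. The fall of Nr5a1 depends on where the population ends: with the presupporting and early supporting-like cells of E11.5 counted as CE, Nr5a1 was higher at E11.5, with a log2 fold change of 0.40. Emx2 (0.15, SE 0.15) and Upk3b (0.32, SE 0.21) were not called, and their libraries overlapped. With the same cells counted as CE, Upk3b turned to a fall, given below. In the mesonephric mesenchyme of the same libraries, Lhx9 and Gata4 went the other way (-0.83 and -0.80), and the difference between the 2 cell types was 1.76 (SE 0.11) for Lhx9 and 1.71 (SE 0.09) for Gata4 on the log2 scale.

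Among the most changed genes, those with large rises held a surface protein, a matrix glycoprotein and an antiproliferative gene. Cd55, a complement regulator on the cell surface, went from between 0.767 and 1.79 CPM to between 19.5 and 38.5 (log2 fold change 4.35), though its exons overlap those of Gm16083 on the other strand, and whether counting used strand was not given in the sources used here. Other large rises were those of Thbs1, a secreted matrix glycoprotein (4.18), Gpr37, an orphan receptor (4.10), Tceal6 (3.98), Sp5, a WNT target (3.89), Lgals7, a galectin (3.64), Btg2, an antiproliferative gene (3.36), Tulp2 (3.36) and Nppc, the C-type natriuretic peptide precursor (3.29). Among the E10.5 libraries, XY replicate 1 stood above the other 3 for Btg2, at 148 CPM against 15.3, 25.7 and 32, and for Sp5, Nppc and Thbs1. Without it the log2 fold changes were 4.19 for Btg2, 4.85 for Sp5, 4.38 for Nppc and 5.08 for Thbs1.

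The largest falls held an imprinted growth gene, a Hox gene and another homeobox gene. Dlk1, an imprinted gene for a transmembrane relative of the NOTCH ligands (chromosome 12, 109452823 to 109463336), was at 1372, 858, 1116 and 1348 CPM at E10.5 and at 153, 172, 204 and 179 at E11.5, a log2 fold change of -2.73 (SE 0.16, adjusted p = 1.25e-05). Sncg, a synuclein, fell by 3.44 on the log2 scale and Igdcc3, an immunoglobulin superfamily gene, by 3.27. Hoxb2 fell by 2.94, Foxd2os by 2.69, Cck, the cholecystokinin precursor, by 2.45, Gm14226 by 2.40, Abhd11os by 2.35 and Pappa, a protease that releases IGF from its binding proteins, by 2.26. Hoxb2 and Abhd11os share exons with a gene of the other strand. Alx1, a paired-type homeobox factor, fell from between 29.5 and 64.3 CPM to between 8.23 and 11.7 (-2.21, SE 0.21), while it rose by 1.18 in the mesonephric mesenchyme.

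Hox genes encode position along the body axis. Of 26 tested, 16 were lower and 4 higher at E11.5, with a median log2 fold change of -1.09 against 0.0175 over all genes tested. Of all genes tested, 13.1% were lower and 15.8% higher. Of the 22 genes of groups 3 to 9, 16 fell and 2 rose, and of the 4 of groups 10 and 11, 2 rose and 0 fell, with Hoxa10 (0.82, SE 0.52) and Hoxc10 (0.15, SE 0.27) not called. No test of paralogue group or cluster was run. Hoxa7 was at 180, 134, 108 and 132 CPM at E10.5 and at 34.2, 28.4, 35 and 29 at E11.5 (-2.13, SE 0.15). Hoxb8 (-2.88), Hoxb4 (-2.68) and Hoxb7 (-2.03) fell too, and Hoxc8 went from between 119 and 142 CPM to between 44.6 and 52.3. All 4 that rose were of the Hoxd cluster, in which Hoxd3 (-0.14) and Hoxd4 (-0.34) were not called. Hoxd10 was at 3.07, 6.16, 5.26 and 6.01 CPM and then at 34.0, 46.5, 30 and 40 (2.82, SE 0.15, adjusted p = 1.02e-05), Hoxd11 rose by 3.28 from under 1 CPM in every E10.5 library to between 1.95 and 3.97, Hoxd9 by 1.20 and Hoxd8 by 0.69. In the mesonephric mesenchyme, where 31.3% of all genes tested were called (17.3% higher and 13.9% lower), 11 of 27 Hox genes fell and 2 rose. The difference between the 2 cell types was called for 20 of 27, with a lower change in the CE for 15 and a higher one for 5, against 14.7% of all genes tested. For Hoxd10 it was 2.05 (SE 0.23). With presupporting and early supporting-like cells pooled into the E11.5 CE, 19 of 26 Hox genes were lower and 2 higher. There 17.3% of all genes tested were lower and 21.7% higher.

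**Figure D2:**
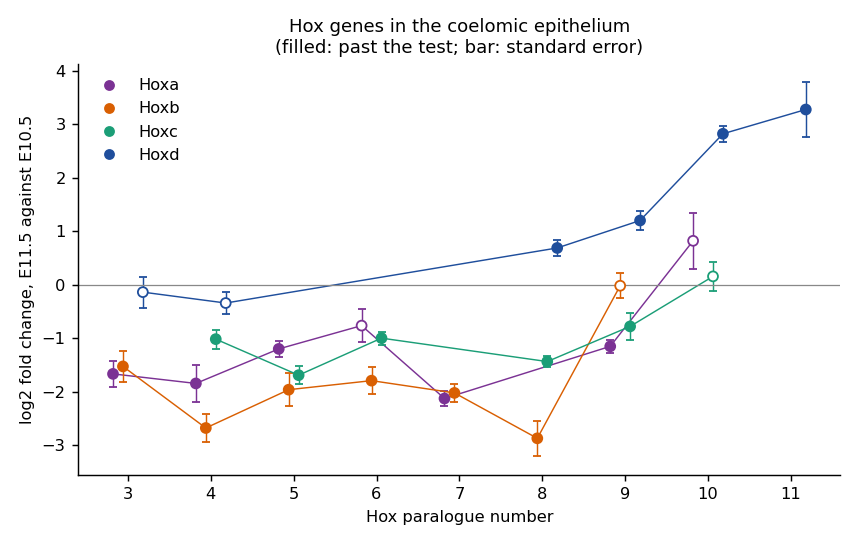
Log2 fold change from E10.5 to E11.5 in the CE for each Hox gene tested (vertical axis) by its paralogue number (horizontal axis), with the standard error as a bar and filled symbols for called genes. Most genes of groups 3 to 9 lie below 0, and Hoxd8 to Hoxd11 lie at 0.69, 1.20, 2.82 and 3.28.

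Genes of the Lin28 and let-7 circuit, which times development in many tissues, mostly fell, with 8 of 12 lower and 2 higher. The shares over all genes tested were 13.1% and 15.8%. Lin28a, the RNA-binding protein that blocks let-7 processing, was at 16.9, 5.12, 8.87 and 11.47 CPM at E10.5 and at 0.937, 0.782, 1.5 and 1.14 at E11.5 (-3.19, SE 0.35). Its paralogue Lin28b fell by 1.72, Trim71 by 1.46, Arid3a by 1.40 and Igf2bp1 by 0.84. The 2 that rose were Myc (2.67) and Mycn (0.55). Mesonephric mesenchyme gave the same counts, 8 lower and 2 higher, against 13.9% and 17.3% of all genes tested there. Lin28a fell in the mesenchyme by 4.17.

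Of 20 imprinted genes of growth, 11 fell and 2 rose, against 13.1% and 15.8% of all genes tested. H19, a non-coding RNA that restrains growth, was at 973, 896, 1056 and 1137 CPM at E10.5 and at 583, 493, 460 and 379 at E11.5 (-1.09, SE 0.13). The maternally expressed Meg3 fell by 1.24 and Rian by 1.21, both of the cluster on chromosome 12 that also holds Dlk1, and Asb4 fell by 1.80. Phlda2 (1.85) and Magel2 (1.18) rose, Phlda2 from between 0.751 and 1.79 CPM to between 2.67 and 5.25. In the mesonephric mesenchyme 9 of the 20 fell and 2 rose, against 13.9% and 17.3% of all genes tested there. The median of the list was -0.30 in the mesenchyme and -0.56 in the CE. The stage difference was lower in the CE than in the mesonephric mesenchyme for 10 of the 20 and higher for 2, against 7.66% and 7.06% of all genes tested.

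Signalling genes were described by pathway, and of these lists the FGF genes had the highest share of rises. Over all genes tested, 15.8% were higher and 13.1% lower in the CE, and 17.3% and 13.9% in the mesonephric mesenchyme. These shares stand beside each list of the stage comparison below unless others are given. Of 17 FGF genes tested, 12 were higher and 1 lower (median 0.83), and in the mesonephric mesenchyme 11 of 19 were higher and 1 lower (median 0.58). Spry2, a feedback inhibitor that FGF signalling induces, was at 6.39, 9.26, 9.01 and 8.59 CPM and then at 44.1, 53.0, 55.7 and 83.4 (2.80, SE 0.18, adjusted p = 1.83e-05). Etv5, an ETS factor induced by FGF receptors, went from between 3.43 and 4.04 CPM to between 14.3 and 27.2 (2.43, SE 0.18), with both XY libraries above both XX libraries at E11.5. Spry4 rose by 2.48, Fgf2 by 2.18, Fgfr4 by 1.94 and Fgf18 by 1.72. Etv4 also rose (2.24, SE 0.53), although its stages overlapped, with 4.79 and 4.50 CPM in the XX libraries of E11.5 and 23.5 and 18.2 in the XY libraries. Fgf10, a mesenchymal ligand, fell by 0.64 with overlapping libraries and was not called without E10.5 XX replicate 2, E10.5 XY replicate 1 or either E11.5 XY library.

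Of 29 WNT genes, 12 were higher and 4 lower (median 0.41), and in the mesonephric mesenchyme 15 of 30 were higher and 2 lower (median 0.64). The difference between the cell types was called for 13 of 30, higher in the CE for 4 and lower for 9. Among ligands, Wnt5a, which acts mainly through the non-canonical branch, was at 7.42, 10.3, 14.3 and 14.9 CPM and then at 99.0, 81.8, 77.3 and 84.9 (2.81, SE 0.18), and Wnt6 rose by 1.40 and Wnt11 by 1.08. Wnt4, the ligand that later supports ovarian fate, fell from 50.1, 66.8, 74.8 and 94.9 CPM to 38.6, 29.8, 34.8 and 26.1 (-1.17, SE 0.19), whereas it rose by 1.32 in the mesonephric mesenchyme (difference -2.51, SE 0.15). The canonical targets Axin2 (1.35), Nkd1 (1.32) and Lef1 (1.16) rose, as did the inhibitor Dkk1 (2.39). The secreted inhibitors Sfrp1 (-1.06) and Notum (-1.61) fell, Notum with overlapping libraries and no call without either E11.5 XY library. In the paper, a Pax8-positive subset of E10.5 CE cells had higher Wnt4 and Sfrp1, and is proposed to be turning into supporting-like cells. Supporting-like cells are annotated apart from the CE at E11.5, so the falls of Wnt4 and Sfrp1 may depend on where the population ends. With presupporting and early supporting-like cells pooled into the E11.5 CE, 0 of 22 supporting genes were called lower. That list holds Wnt4, so the fall of Wnt4 was no longer called.

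Of 32 BMP and TGF-beta genes, 14 were higher and 5 lower (median 0.44), and in the mesonephric mesenchyme 11 were higher and 7 lower (median 0.27). Bmp2 was at 5.12, 12.6, 4.57 and 4.90 CPM at E10.5 and at 42.4, 39.6, 48.8 and 51.7 at E11.5 (2.74, SE 0.29). Of the other ligands, Gdf6 rose by 2.23, Tgfb1 by 2.07, Tgfb2 by 1.3 and Bmp7 by 1.21, while Bmp5 fell by 1.97 and Bmp4 by 0.44, the last no longer called without 1 of 3 libraries (E10.5 XY replicate 2, E11.5 XX replicate 1 or E11.5 XY replicate 1). The target genes split: Id4 rose by 3.09 and Id2 by 0.55, and Msx2 fell by 1.22 and Id3 by 0.76. Nog, a BMP antagonist, rose by 1.83 but was not called without E10.5 XX replicate 2, E10.5 XY replicate 2 or E11.5 XY replicate 2.

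Of 18 NOTCH genes, 7 were higher and 2 lower (median 0.33), and in the mesonephric mesenchyme 7 of 19 were higher and 1 lower (median 0.19). The target Hes1, a transcriptional repressor, was at 74.2, 98.2, 68.6 and 90.2 CPM and then at 457, 448, 404 and 390 (2.37, SE 0.12, adjusted p = 9.69e-06), with Dll1, a ligand, rising by 2.01 and Lfng, which modifies the receptors, by 1.90. The receptor Notch3 fell by 1.0. Hes1 rose by 2.58 in the mesonephric mesenchyme as well, and its difference between the cell types was not called (-0.22, SE 0.10). Of 9 hedgehog genes, 5 rose and 0 fell, among them the co-receptors Boc (1.33) and Gas1 (0.83) and the factor Gli2 (0.91), while Gli1, a direct target, was at 4.18 to 6.47 CPM at E10.5 and 4.65 to 7.10 at E11.5 and was not called. In the mesonephric mesenchyme 6 of 11 hedgehog genes rose and 0 fell (median 0.38, against 0.46 in the CE).

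Of 15 retinoic acid genes, 6 fell and 0 rose (median -0.20), and in the mesonephric mesenchyme 5 of 16 fell and 2 rose (median -0.07). With presupporting and early supporting-like cells pooled into the E11.5 CE, 6 of 15 were lower and 5 higher. In that pooled comparison 17.3% of all genes tested were lower and 21.7% higher. Aldh1a2, the enzyme that makes retinoic acid in mesothelium, was at 356, 326, 258 and 324 CPM at E10.5 and at 142, 138, 189 and 164 at E11.5 (-1.0, SE 0.13), and it rose by 1.12 in the mesonephric mesenchyme, a difference of -2.13 (SE 0.13). The binding protein Crabp2 went from between 145 and 268 CPM to between 40.9 and 50.4 (-2.18, SE 0.14), and it fell by 1.56 in the mesenchyme as well (difference -0.65, SE 0.08). The retinol uptake receptor Stra6 fell by 1.98, Crabp1 by 1.10 and the receptor Rarb by 0.89. Crabp1 fell by 0.90 in the mesenchyme too, and its difference was not called, whereas Stra6 (0.54) and Rarb (0.34) were not called there and differed between the cell types (-2.52, SE 0.17, and -1.28, SE 0.11).

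**Figure D3:**
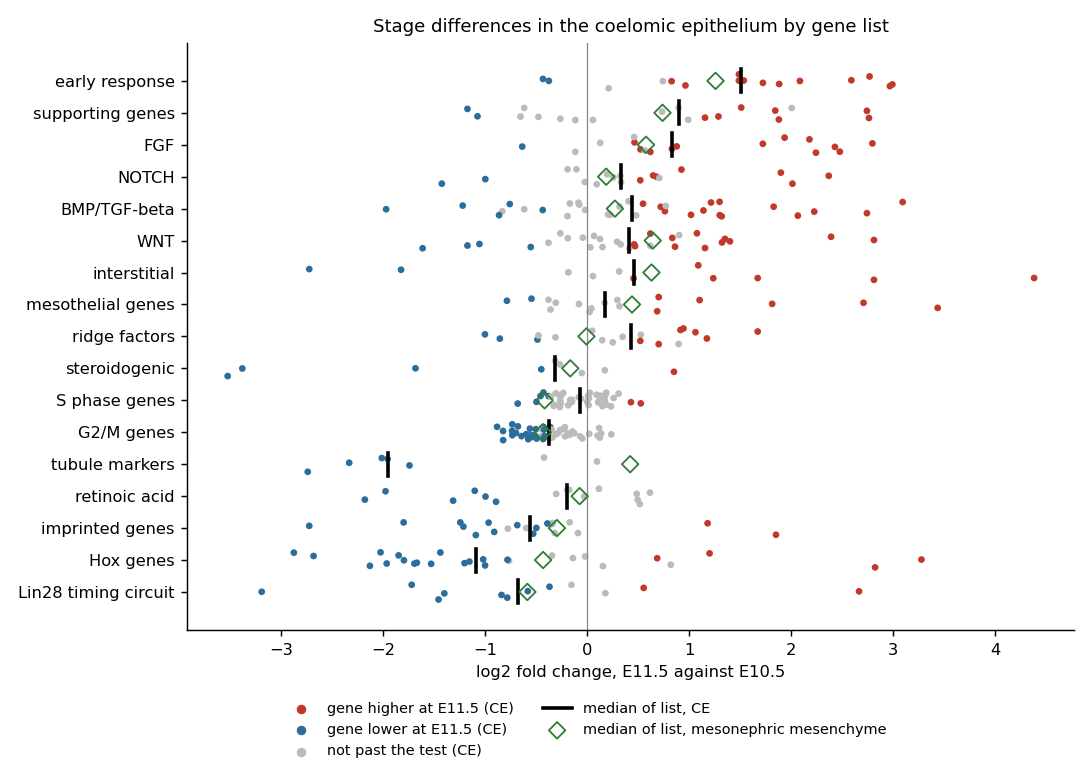
Log2 fold change from E10.5 to E11.5 (horizontal axis) for each gene of 17 lists, in the CE, with called rises in red, called falls in blue, other genes in grey, a black bar at the list's median in the CE and a green diamond at its median in mesonephric mesenchyme. The CE medians run from -1.09 for Hox genes to 0.83 for FGF genes among the signalling and patterning lists, against 0.0175 for all genes.

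Of 18 factors needed for the genital ridge, 7 were higher and 3 lower (median 0.43). Besides Lhx9 and Gata4, Wt1, the zinc finger factor of mesothelium and gonad, rose by 0.70 from 145, 211, 212 and 203 CPM to 360, 281, 316 and 300. Cited2, a co-activator, rose by 1.17, Zfpm2, the FOG2 partner of GATA4, by 1.06, and Tcf21 by 1.67. Tcf21, a basic helix-loop-helix factor of mesothelium and stroma, was uneven between libraries, at 54.0, 28.2, 66.5 and 81.0 CPM and then at 215, 315, 79.4 and 135, and was not called without E11.5 XX replicate 1. Osr1, a factor of intermediate mesoderm, fell by 0.86.

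Of 17 mesothelial genes, 6 rose and 2 fell, with a median of 0.17, and in the mesonephric mesenchyme 8 of 18 rose and 3 fell (median 0.44). Of all genes tested, 15.8% rose and 13.1% fell in the CE, and 17.3% rose and 13.9% fell in the mesenchyme. With presupporting and early supporting-like cells pooled into the E11.5 CE, 5 of 17 mesothelial genes were higher and 4 lower (median -0.31). There 21.7% of all genes tested were higher and 17.3% lower. Krt7, a keratin of simple epithelia, was at 2.56, 13.1, 6.14 and 5.46 CPM at E10.5 and at 39.5, 43.7, 49.1 and 53.6 at E11.5 (2.71, SE 0.30). The mucin Muc16 rose by 3.44 to between 3.06 and 4.99 CPM, and Cldn15, a claudin, by 1.10. Krt18 (-0.79) and Krt8 (-0.55) fell with overlapping libraries. Krt18 was not called without replicate 1 of E10.5 XX, E10.5 XY, E11.5 XX or E11.5 XY, and Krt8 lost its call when any 1 library other than E10.5 XX replicate 1 and E11.5 XX replicate 2 was left out. Krt19 and Lrrn4, 2 mesothelial genes, were between 11.47 and 34.0 and between 15.1 and 21.0 CPM at E10.5, and between 18.7 and 32.9 and between 15.6 and 21.0 at E11.5.

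Of 16 genes of the epithelial to mesenchymal change, 6 were higher and 2 lower, against 15.8% and 13.1% of all genes tested. Snai2, a repressor of epithelial genes, was at 18.2, 36.2, 33.0 and 34.2 CPM and then at 116, 125, 91.8 and 114 (1.86, SE 0.16), and the mesenchymal cadherin Cdh11 went from between 8.95 and 16.48 CPM to between 53.1 and 62.2 (2.07, SE 0.13). Vim rose by 0.74 and Fn1 by 0.85. Cdh2, N-cadherin, fell by 0.98 from between 50.7 and 74.7 CPM to between 28.4 and 33.6, and Twist2 fell by 1.67. Of 20 basement membrane genes, 6 rose and 1 fell, led by Frem1 (1.51) and the integrin Itga6 (1.41), and of 16 polarity genes 2 rose and 1 fell. In the mesonephric mesenchyme 10 of 20 basement membrane genes rose and 0 fell (median 0.47, against 0.32 in the CE). There 5 of 17 genes of the epithelial to mesenchymal change rose and 3 fell.

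Of 11 genes of interstitial progenitors, 6 rose and 2 fell, and in the mesonephric mesenchyme 7 of 11 rose and 3 fell. Besides Wnt5a, Pdgfra, a receptor of stromal precursors, rose by 1.09 from 43.7, 23.8, 41.9 and 45.6 CPM to 103, 86.5, 61.4 and 75.6, while Nr2f1 fell by 1.83. Of 19 genes of the supporting lineage, 7 rose and 2 fell (median 0.90), and in the mesonephric mesenchyme 12 of 20 rose and 1 fell (median 0.74). The difference between the cell types was higher in the CE for 6 and lower for 6 of 21 supporting genes, against 7.06% and 7.66% of all genes tested. Cbln4 rose by 1.88, Sox8 by 1.84 to between 4.60 and 8.33 CPM, Irx3 by 2.76 and Runx1, an early marker of the supporting lineage, by 1.51 to between 12.7 and 23.1 CPM. Of 9 steroidogenic genes 4 fell and 1 rose, against 13.1% and 15.8% of all genes tested in the CE. Hsd3b1 fell by 3.53 to at most 0.261 CPM, and Cyp11a1 by 1.68 with overlapping libraries and no call without either E11.5 XY library. With presupporting and early supporting-like cells added to the E11.5 CE, Cyp11a1 was higher at E11.5 (2.31). In that pooled comparison, where 21.7% of all genes tested were called higher and 17.3% lower, 6 of 10 steroidogenic genes were higher, 1 was lower and 3 were not called (median 0.46 against -0.31), and 20 of 22 supporting genes were higher and 0 lower.

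Fewer E11.5 CE cells were in G2 or M phase by the authors' phase calls. The share called G2M was 40.7%, 28.9%, 29.7% and 33.7% of the CE cells in the E10.5 libraries and 20.6%, 18.7%, 24.2% and 18.5% in those of E11.5 (33.3% ± 5.38 and 20.5% ± 2.62, SD, n = 4; p = 0.0286, two-sided exact permutation test, the smallest this design allows). The share called G1 was 17.1%, 31.0%, 36% and 31.0% and then 44.8%, 41.9%, 43.6% and 46.1% (p = 0.0286, same exact permutation test). Neither share overlapped between the stages, and calling the phases anew after thinning gave differences of 15.5 points for G1 and -12.7 points for G2M. The share in S phase differed by -2.50 points (exact permutation p = 0.314). These permutation tests took the 8 libraries as independent, though the XX and XY libraries of a replicate number share a date. With the 2 dates of each stage as units, such a test could not reach a p under 0.05. Of 52 genes of G2 and M phase, 25 fell and 0 rose (median -0.37), whereas 5 of 42 S phase genes fell and 2 rose. In the mesonephric mesenchyme 30 of the 52 and 23 of the 42 fell and 0 rose. The difference between the cell types was called higher in the CE for 2 and lower for 2 of the 52, and higher for 10 and lower for 0 of the 42. These phase calls rest on gene levels that free RNA also reaches, which was not tested. Among inhibitors of the cycle, Btg1 (1.05) and Btg2 rose and Cdkn2d fell (-0.58), while Cdkn1a and Cdkn1c were not called.

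In the cells called G1 alone, 3295 of 13193 genes (25%) were called, 1798 (13.6%) higher and 1497 (11.3%) lower. There 12 of 25 Hox genes fell and 5 rose, 12 of 17 FGF genes rose and 0 fell, and 11 of 20 imprinted genes fell and 2 rose. Of the genes of G2 and M phase 16 of 45 fell and 1 rose. Of 14 retinoic acid genes 6 fell and 2 rose. Of 13 mesothelial genes 2 were higher and 0 lower in these cells (median -0.165), and of 15 supporting genes 5 were higher and 4 lower (median 0.35). The CE made up 5.47%, 28.4%, 13.2% and 15.97% of all cells of the E10.5 libraries and 10.3%, 12.8%, 13.1% and 22.8% of those of E11.5, a difference of -0.999 points (exact permutation p = 0.83) that turned to 3.211 without E10.5 XY replicate 1 and to 0.469 without E11.5 XX replicate 1. Dissection of the ridge can also set this share.

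Early response genes, which are also genes of dissociation and stress, moved with stage in the CE and mesonephric mesenchyme. Of 16 early response genes 12 rose and 2 fell in the CE (median 1.51), and 12 rose and 2 fell in mesonephric mesenchyme (median 1.26). Egr1 was at 19.7, 70.3, 17.2 and 14.9 CPM and then at 252, 227, 126 and 179, and Nr4a1 at 14.1, 102, 13.7 and 18.8 and then at 238, 214, 237 and 282. E10.5 XY replicate 1 was the highest E10.5 library for both. The summed level of the 16 genes in the CE was between 4052 and 5521 CPM at E10.5 and between 6072 and 7210 at E11.5. In mesonephric tubules it was at 4654 to 5251 and then 5764 to 6698, and in immune cells at 5508 to 7993 and then 6507 to 8247. The sums of endothelial cells were 3995 to 4848 and then 4030 to 5247, and those of germ cells 6265 to 7599 and then 5727 to 7542. Adrenosympathic cells had 4909 to 5196 and then 2803 to 5974, and erythrocytes 1686 to 2392 and then 828 to 1091. Whether tissue handling took part in the difference in the CE, or in those of Btg2, Thbs1, Sp5 and Nppc, was not tested.

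Markers of other cell types were also detected in the CE sums. Of 7 germ cell markers 5 rose, with a summed level of all 8 listed between 5.59 and 13.51 CPM at E10.5 and between 27.0 and 48.9 at E11.5, close to the 26.8 to 47.4 CPM in mesonephric mesenchyme of E11.5. Of these, Ddx4 was at no more than 0.61 CPM in any CE sum. Of 7 markers of mesonephric tubules 5 fell and 0 rose, with a summed level of 44.97 to 48.6 CPM and then 14.5 to 22.1. Pax8, also a marker of supporting-like cells and the rete, was at 12.3, 20.0, 15.2 and 17.8 CPM and then at 2.92, 3.85, 4.05 and 2.63 (-2.33, SE 0.20), and rose by 1.27 in the mesenchyme. After thinning, a Pax8 UMI was found in 11.9% of E10.5 and 2.40% of E11.5 CE cells. Of 8 genes of the rete and supporting-like cells 2 rose and 4 fell (median -0.43). With presupporting and early supporting-like cells pooled into the E11.5 CE, 2 were higher and 2 lower (median -0.11). Lhx1 fell by 2.74 with overlapping libraries. Of 10 mesenchymal markers 5 fell, Meox1 by 3.98, and 2 rose, and their summed level went from between 291 and 421 CPM to between 429 and 499, against 1429 to 1709 in mesonephric mesenchyme and 79.3 to 125.8 in endothelial cells of E11.5.

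Kdr, the VEGF receptor that marks endothelium, rose from 2.56, 3.86, 4.85 and 4.50 CPM to 20.0, 29.4, 19.8 and 34.3 (2.65, SE 0.19). Of 5 endothelial markers tested 3 rose and 1 fell. The 8 endothelial markers summed to between 40.1 and 49.0 CPM in the CE of E10.5 and between 49.0 and 69.7 in that of E11.5, against 2874 to 3715 in endothelial cells of E11.5. Besides Kdr, the CE sums of E11.5 averaged 21.2 CPM of Egfl7, 3.76 of Pecam1, 3.20 of Emcn and 2.22 of Esam, and 0.26 of Tek, 0.25 of Tie1 and 0.187 of Cdh5. Of 5 sympathetic markers 3 fell and 0 rose, with a summed level of at most 6.41 CPM at E11.5. Erythrocyte markers summed to between 48.8 and 476 CPM in the E10.5 libraries and between 81.0 and 1237 in those of E11.5. The part that RNA of other cells played in these sums was not tested.

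The second comparison asked which stage differences were those of the CE and not of another cell type of the same libraries. The test of the difference against mesonephric mesenchyme called 2817 of 19132 genes (14.7%), 1351 (7.06%) with a higher and 1466 (7.66%) with a lower change in the CE. Genes with a higher change were led by Actc1, cardiac actin (3.69), Calb1, a calcium-binding protein (3.53), Cd55 (3.16), Nrg1, a ligand of ERBB receptors (3.07), and Map2, a microtubule-associated protein (2.91). Those with a lower change were led by Agtr2, the type 2 angiotensin receptor (-5.10), Gata2 (-4.43), Tbx3os1 (-3.55), Igfbp3 (-3.50) and Alx1 (-3.42). Agtr2 was not called in the CE itself, at 1.02, 0.941, 0.546 and 1.87 CPM and then 1.25, 2.15, 1.05 and 0.825, while it rose from between 0.820 and 1.65 to between 35.6 and 76.9 CPM in the mesenchyme.

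The third comparison divided the E11.5 CE by its mesothelial surface marker. Cells were thinned again to 10000 UMIs in a separate random draw, so the shares with Upk3b differ from those given above. In this draw 124 of 410, 145 of 637, 116 of 284 and 391 of 1128 cells carried a Upk3b UMI. Sums of cells with and without one were compared within each library, with Upk3b left out. A cell without a UMI may still express the gene, so the values below compare a richer with a poorer set of cells. Of 11774 genes, 2328 (19.8%) were called, 1098 (9.33%) higher and 1230 (10.4%) lower in cells with Upk3b.

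Cells with Upk3b had higher levels of other mesothelial genes. Of 14 tested, 12 were higher and 0 lower, with a median log2 difference of 1.77 against -0.0123 for all genes tested. Krt19 was at 31.2, 52.6, 57.7 and 47.4 CPM in cells with and at 12.8, 6.53, 15.5 and 6.90 in cells without Upk3b, a log2 difference of 2.39 (SE 0.17, adjusted p = 4.68e-16). Lrrn4, a neuronal leucine-rich repeat protein that marks mesothelium, differed by 2.37, Krt7 by 2.31, Myl7, an atrial myosin light chain, by 2.26, and Tm4sf5, a membrane protein, by 2.13. Also among the 10 largest were Edn2, an endothelin (2.12), Aplp1 (2.08), Irf5 (2.04), the polarity gene Crb2 (1.94) and Ildr2 (1.92), all higher in 4 of 4 libraries. Aldh1a2 was higher (252 against 109 CPM, 1.29), as were Podxl (1.66), the ridge factor Emx2 (101 against 68.9 CPM, 0.60) and Lhx9 (487 against 381 CPM, 0.38), Lhx9 without a call when XY replicate 2 was left out. Gata4 (0.04, SE 0.07) and Nr5a1 (-0.15, SE 0.10) were not called.

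Cells without Upk3b had higher levels of a matrix gene, a neurotrophin receptor and part of the interstitial genes. Sparcl1, a matrix protein, was at 26.3, 20.0, 17.2 and 16.8 CPM in cells with and at 225, 199, 220 and 274 in cells without Upk3b (-3.66, SE 0.10, adjusted p = 6.43e-31). Ngfr, the low-affinity neurotrophin receptor, was at 13.1, 14.5, 7.75 and 16.6 and at 87.0, 120, 116 and 141 CPM (-3.12, SE 0.12). Calb1 was at 25.4, 29.7, 12.9 and 16.8 and at 185, 143, 151 and 137 CPM (-2.87, SE 0.11). In each of these the 2 sets of sums did not overlap. Also among the 10 with the largest negative differences were Aim2 (-3.19), Dhrs7 (-2.94), Cpa1 (-2.88), Bst2 (-2.68), Cyp1b1 (-2.60), Itga8 (-2.47) and Tbx2 (-2.33), lower in 4 of 4 libraries. Of 11 interstitial genes 5 were lower in cells with Upk3b, among them Pdgfra (38.8 against 119 CPM, -1.64), and Dlk1 was higher (239 against 134 CPM, 0.85). Of 14 genes of the epithelial to mesenchymal change 6 were lower, including Zeb1 (-1.55) and Snai2 (-0.86), and 3 higher.

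**Figure D4:**
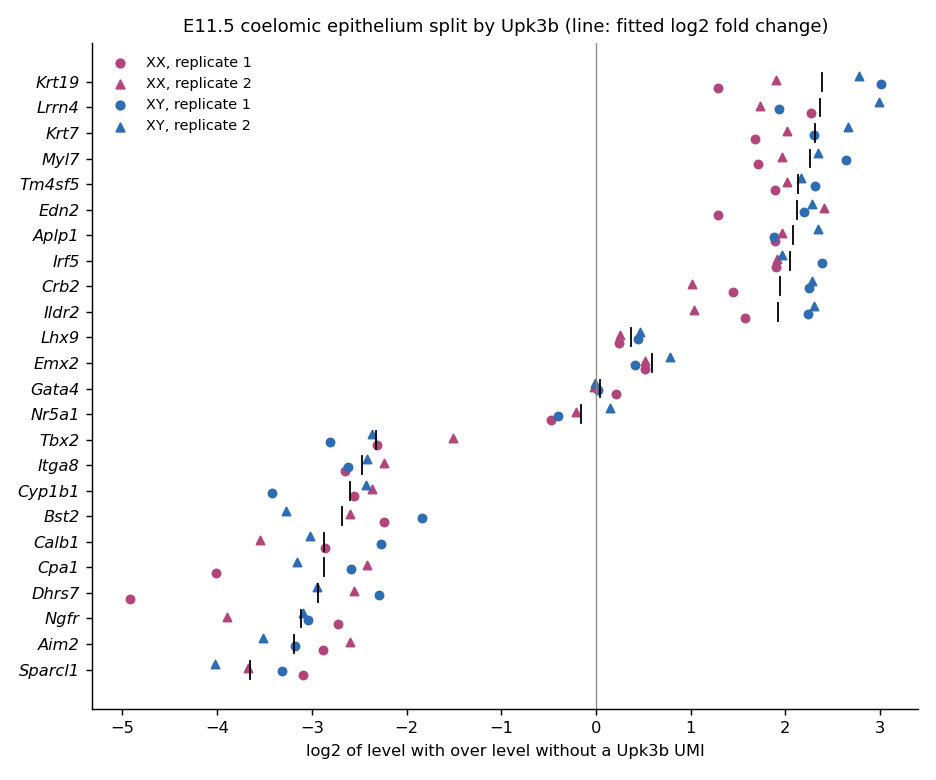
Log2 ratio of CPM in E11.5 CE cells with a Upk3b UMI to that in cells without one (horizontal axis), 1 point per library and a line at the fitted value, for the 10 genes with the largest positive and the 10 with the largest negative differences and for Lhx9, Emx2, Gata4 and Nr5a1. Fitted values run from -3.66 for Sparcl1 to 2.39 for Krt19, and the 4 libraries of each of the 20 genes lie on 1 side of 0.

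Phase calls and phase genes also differed with Upk3b, and no measure independent of those genes was used. Of cells with a Upk3b UMI 21.8% to 25.1% were called G1, against 46.3% to 54.6% of those without, and of 52 genes of G2 and M phase 44 were higher and 0 lower (median 0.70), with 22 of 42 S phase genes higher and 0 lower. Cdkn1a, which arrests the cycle, was lower in cells with Upk3b (16.3 against 42.9 CPM, -1.45). Among cells called G1 alone, 863 of 9576 genes (9.01%) were called, 412 (4.3%) higher and 451 (4.71%) lower, 11 of 12 mesothelial genes were higher, and 6 of 29 G2 and M phase genes were higher. Of 19 Hox genes 9 were higher in cells with Upk3b and 0 lower (Hoxd8 by 0.80), and in G1 cells 4 of 16.

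The division by Upk3b was compared with the same division of E10.5 CE cells. Of 12603 genes, 450 (3.57%) differed between the stages, 216 (1.71%) towards a higher and 234 (1.86%) towards a lower ratio at E11.5. Calb1 averaged 10.9 CPM in cells with and 11.95 in cells without Upk3b at E10.5, against 21.2 and 154 at E11.5 (difference -2.68, SE 0.27, adjusted p = 7.88e-11). Sparcl1 averaged 41.8 and 88.6 CPM at E10.5, against 20.1 and 229 (-2.45, SE 0.17). Tbx2 (-2.25), Aim2 (-2.22) and Hsd11b2 (-2.02) followed. On the other side were Kdr (1.91), Gm26737 (1.78), Edn2 (1.72), Olfr889 (1.68) and Map2 (1.58). Without E10.5 XY replicate 2 the calls for Map2 (1.07), Gm26737 (1.65) and Olfr889 (1.21) were lost, as were Gm26737 without E11.5 XX replicate 2 (0.87), Olfr889 without E11.5 XY replicate 2 (0.32), and Aim2 without E10.5 XX replicate 1 (-1.91), E10.5 XY replicate 1 (-2.21) or E11.5 XY replicate 2 (-1.95). With no block for library, 18 genes were called, and Kdr, Gm26737, Edn2, Olfr889, Map2 and Aim2 were not among them. Of 25 Hox genes 7 and of 52 genes of G2 and M phase 15 had a higher ratio at E11.5, and 0 a lower one.

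The CE was set beside the presupporting cells of E11.5 as a description, since both were defined by clustering the same cells. By a mean log2 ratio of at least 1 in size with 1 sign in all 4 libraries, 2197 of 16108 genes (13.6%) differed, 872 (5.41%) higher and 1325 (8.23%) lower in the CE. Upk3b was at 88.1, 71.9, 137 and 120 CPM in the CE and at 18.6, 3.59, 35.1 and 22.5 in presupporting cells (mean log2 ratio 2.72). Tcf21 (2.61), Kcne1l (2.53), Pcp4l1 (2.47), Hsd11b2 (2.42), Tm4sf5 (2.39), Tmem151a (2.35), Hoxd10 (2.27) and Ngfr (2.26) followed. Among the lowest ratios were those of Ctrb1 (-5.44), Ptgds, prostaglandin D synthase (-5.22), Tgm3 (-5.12), 2210407C18Rik (-5.07), Rhox8 (-4.83), Cyp11a1 (-4.82), Sprr2d (-4.72), Gm2044 (-4.71) and Aldh3b1 (-4.66). Nr5a1 was at 62.3, 60.8, 60.4 and 49.4 CPM in the CE and at 127, 219, 107 and 160 in presupporting cells (-1.35), and Gata4 at -1.10. Of 21 genes of the supporting lineage 17 were lower in the CE, including Runx1 (-2.77), Sox9 (-1.91) and Wnt4 (-1.73). Of 11 interstitial genes 7, of 25 Hox genes 8 and of 52 genes of G2 and M phase 35 were higher, and 0 lower.

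The last comparison asked whether the CE of E11.5 differed between XX and XY embryos, at the stage when Sry acts. With 2 libraries per sex and no block, 0 of 15549 genes (0.0%) were called by edgeR's quasi-likelihood test, with 448 at an unadjusted p under 0.05, and DESeq2 called 12. The Y-linked Ddx3y, at 0 and 6.87 CPM in the XX and 83.1 and 84.8 in the XY libraries, was not called either (adjusted p = 0.9995). With library date as a block, which pairs the XX and XY libraries of a date, 48 genes (0.309%) were called, 39 (0.251%) higher and 9 (0.0579%) lower in XY. They included all 5 sex-linked genes used to check the labels, 2 of 7 erythrocyte markers and 1 of 5 endothelial markers tested, all 3 of these markers higher in XY, and the part of other cells' RNA in the calls was not tested. The genes of the next sentences were chosen from these after their values were seen. Etv4 was at 4.8 and 4.48 CPM in the XX and at 23.5 and 18.2 in the XY libraries (2.17, adjusted p = 8.69e-05 with the block and 0.34 without). Mef2c, a MADS box factor, was at 33.8 and 27.2 and at 69.5 and 59.2 CPM (1.08, adjusted p = 0.000332 with the block), Dkk1 at 3.65 and 3.59 and at 14.1 and 9.38 (1.70) and Etv5 at 14.3 and 14.3 and at 27.3 and 23.4 (0.82). Tcf21 differed by 0.66 within dates, with 216 and 316 CPM in the libraries of the first date and 79.0 and 136 in those of the second, so its difference between dates was the larger. None of the 5 markers was called with the block, with differences of -0.04 for Lhx9, -0.03 for Gata4, -0.16 for Nr5a1, -0.18 for Emx2 and -0.24 for Upk3b. In the test of stage by sex, 0 of 16867 genes were called, 382 had an unadjusted p under 0.05 and DESeq2 called 2.

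Several genes of sex determination differed between the sexes by more in presupporting cells than in the CE. The test of the sex difference between these 2 cell types, within libraries, called 427 of 17226 genes (2.48%), 297 (1.72%) with a higher and 130 (0.755%) with a lower XY difference in presupporting cells. Sox9, the Sertoli factor that SRY switches on, was at 49.8 and 42.4 CPM in the XX CE and at 54.8 and 48.4 in the XY CE, against 75.2 and 74.7 and then 604 and 329 in presupporting cells (difference 2.41, SE 0.18, adjusted p = 1.44e-05). Fgf9, a ligand that maintains Sox9, was at 3.86 and 4.18 and at 3.86 and 3.78 CPM in the CE, against 3.04 and 4.30 and then 60.5 and 27.1 (3.53, SE 0.42). Among those with the largest differences were Mt3 (4.41), Ppargc1a (3.66), Dusp15 (3.24) and Amh (3.12), the last without a call when either XX library was left out. On the other side were Utf1 (-1.39), Fst, an activin antagonist (-1.33), Cygb (-1.27), Wisp1 (-1.21) and Csgalnact1 (-1.09). Fst was not called, and nor was Mt3, without XX replicate 1. Wnt4 (-0.95), Lhx9 (-0.79) and Nr5a1 (0.83) also differed: Lhx9 was at 414 and 439 and at 386 and 445 CPM in the CE, and at 385 and 353 and then 183 and 237 in presupporting cells. Without the library block, 3 genes were called and these calls were lost. In presupporting cells by themselves, 214 of 16669 genes (1.28%) were called between the sexes, 198 (1.19%) higher and 16 (0.096%) lower in XY. Sex-linked UMIs went against the label in 22 of 382 presupporting cells of XX replicate 2 and 22 of 1122 of XY replicate 2.

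**Figure D5:**
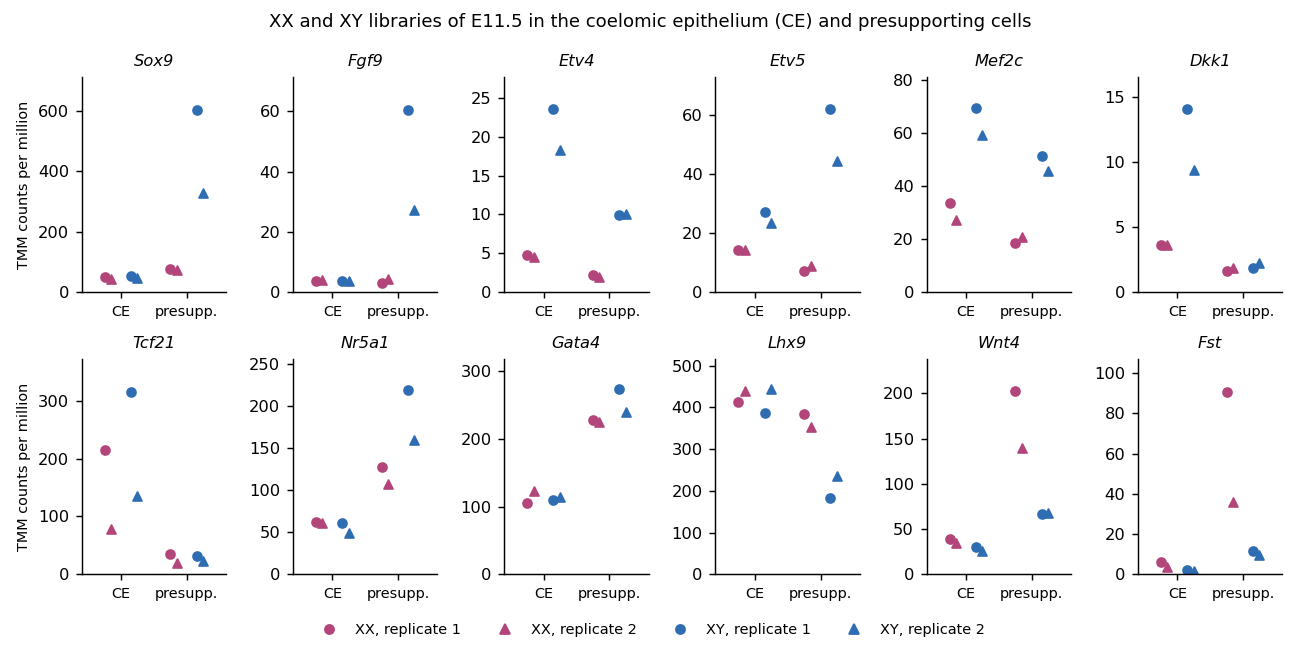
Levels in CPM of 12 genes (1 panel each) in XX and XY libraries of E11.5, in the CE and in presupporting cells, 1 point per library and 2 libraries per sex. Sox9 lies between 42.4 and 54.8 in all 4 CE libraries and at 329 and 604 in XY presupporting cells, whereas Etv4 and Mef2c are higher in both XY libraries in the CE.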

How the data were processed

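Single cells of urogenital ridges were profiled with 10x Genomics 3′ chemistry, and the 8 libraries of E10.5 and E11.5 were used of 20. The authors demultiplexed, aligned and counted reads with Cell Ranger 2.1 (per the submitters' processing notes) on GRCm38, chose cell barcodes from the density of UMIs, applied no filter on cells, and deposited raw UMI counts for 26397 genes. The deposited cell table holds cluster, cell type and cell cycle phase, the last called by the authors from an S score and a G2/M score per cell. Whether counting used strand was not given in the sources used here.

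Cells were not treated as replicates. Counts were summed per library over CE, presupporting or mesonephric mesenchyme cells and tested with edgeR 4.0.16 (R 4.3.3; TMM, default expression filter, quasi-likelihood F test, Benjamini-Hochberg adjustment over all genes tested). Sex was a term in the stage test, and library was a block in the comparisons within libraries. The standard error was taken as the log2 fold change divided by the square root of F. In edgeR the variance of each gene is moderated by an estimate from all genes. The sex tests with a block and the test of the Upk3b division at E11.5 leave few residual degrees of freedom. Their p-values, the very small ones of that division included, lean on the shared estimate. CE was set beside presupporting cells without a test. Shares were compared with exact permutation tests over libraries (scipy 1.17.1). Scripts were tested on simulated counts. Alternatives used DESeq2 1.42.0 and limma 3.58.1, and a doublet score was computed with scanpy 1.11.5, since the cell table holds none; doublets were otherwise kept.

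Library date, as read from the prefix of the titles, pairs the XX and XY library of a replicate number. Their deviations correlated at 0.348 at E11.5 and 0.179 at E10.5, and those of 2 sums of 1 library at 0.311 to 0.592. The members and all 31 gene lists (498 genes) were chosen with earlier results of these data known. Genes were named by rule: the 5 markers, the 10 largest rises and 10 largest falls with at least 20 CPM in the higher stage and no overlap, the 3 largest calls of each list with members needed to say what it holds, the 10 largest each way of the Upk3b division and of CE against presupporting cells, and the 5 largest each way of each interaction, all at 20 CPM or more. A few genes that this rule names are not reported here, though list counts include them. Genes sharing exons with another gene in GENCODE M21 are uncertain. They include Tulp2, Alx1, Cyp11a1, Irf5, Crb2, Itga8, Emx2, Wnt5a, Id4, Dll1, Irx3, Notum, Nrg1, Tbx3os1, Cygb, Gm26737 and Twist2. Intervals and limits for a count of 0 (3 counts) cover counting error only.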

Additional observations from a re-analysis of the deposited data

Results flagged for a closer look

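A sample that stood far from the other 3 of its stage was found in 14 of 204 groups of 4 libraries tested, by Dixon's criterion at the 95% level, which chance gives in about 1 in 20 groups. Of these, 9 were E10.5 XY replicate 1 in the CE. In that library Btg2 was at 148.4 CPM, Nr4a1 at 101.9, Egr1 at 70.3, Bmp2 at 12.56, Nppc at 11.71, Sp5 at 5.125 and Dppa5a at 3.151, each above the other 3, while Gli2 was at 7.618 and Crb3 at 0.9405, below them. The next highest E10.5 library was at 32 CPM for Btg2, 18.8 for Nr4a1, 19.7 for Egr1 and 5.12 for Bmp2. In E10.5 XX replicate 1, the library with 140 CE cells, Cd55 was at 0.7674 CPM against 1.64 to 1.79 in the others. In E10.5 XY replicate 2, Stra6 was at 26.42 CPM against 17.6 to 18.6.

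Among the E11.5 libraries, XY replicate 2 had Myc at 41.5 CPM against 26.4 to 28.9 in the other 3, and Nr5a1 at 49.36 against 60.6 to 62.2. XX replicate 2 had the mesothelial gene Gpm6a at 5.103 CPM against 2.87 to 3.18. Both are the E11.5 libraries in which CE cells with sex-linked UMIs against the label were found; their part in these values was not tested.

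Groups differed under 3 contrasts, each by a test of the difference itself. The stage difference differed between CE and mesonephric mesenchyme for 2817 genes, the sex difference between presupporting cells and CE for 427, and the difference between CE cells with and without Upk3b between the stages for 450.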

How the results depend on the processing

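With library as the replicate block left out, the difference between CE and mesonephric mesenchyme was called for 1189 genes, sex by cell type for 3, the Upk3b division for 1224 and that division by stage for 18. With library date as the block, sex in the CE gave 48 calls, stage by sex 0 and the stage comparison 3738 by limma-voom with date as a random block. The stage comparison gave 1608 genes in XX libraries alone, 1496 in XY libraries alone, 2793 with 140 cells per library and 2441 with the libraries of a date summed, all with fewer samples or cells. Leaving out a library gave 3855 to 4882 genes for stage, 2211 to 2885 for stage against mesenchyme, 1 to 6 for sex in the CE, 0 to 1 for stage by sex, 492 to 821 for sex by cell type (821 without XY replicate 2, 734 without XX replicate 2), 1486 to 2364 for the Upk3b division (1486 without XY replicate 2) and 242 to 445 for that division by stage (242 without E11.5 XY replicate 2). DESeq2 called 12 genes for sex in the CE, 2 for stage by sex, 198 for sex by cell type, 1089 for the Upk3b division and 164 for it by stage; the cause was not tested. Without a filter on low counts, sex in the CE gave 1 and sex by cell type 649. Without cells against their sex label, sex in the CE gave 5 and, with the date block, 37. Sex by cell type then gave 541, against 427 with all cells. The Upk3b division gave 1359 with 5000 UMIs per cell and 863 in G1 cells, both with fewer UMIs or cells, and a ratio of at least 0.5 between CE and presupporting cells 4964 genes.

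Leaving out a library moved the CE share difference between -4.425 and 3.211 points (3.211 without E10.5 XY replicate 1 and 0.469 without E11.5 XX replicate 1), the G1 difference between 11.41 and 17.71 and the G2M difference between -14.24 and -10.32, the phase shares with an exact permutation p of 0.0571, the smallest that 3 against 4 libraries allow. Emx2 turned to -0.0459 in G1 cells and ranged from -0.0012 (without E10.5 XX replicate 1) to 0.2844. With presupporting and early supporting-like cells pooled into the E11.5 CE, Nr5a1 (0.3962), Cyp11a1 (2.3085), Upk3b (-0.6691) and Dscc1 (-0.1329) turned direction. Among single genes named, 2357 values kept direction and side of the threshold, 158 lost and 1 gained a call, and 6 turned. Of the lost calls, 12 came with the libraries of a date summed and 8 with date as a random block, both in the stage comparison. In the stage comparison the limits by doublet score and G1 cells, the pooling and the summing by date were chosen after seeing the data, as was leaving out cells against their label in both sex comparisons. A comparison within a cluster shared by both stages was not run, because 16 E11.5 and 0 E10.5 CE cells lay in the other stage's cluster. Depth limits genes near 1 CPM, which rest on few UMIs in the smallest sum.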

Other observations

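Within single E11.5 CE cells, a Nr5a1 UMI was found in 38.1% of cells with and 41.4% of cells without a Upk3b UMI, and in 42.6% of cells with and 36.5% of cells without a Gata4 UMI, after thinning to 10000 UMIs per cell. At E10.5 the CE cells without any of the 5 markers were 13.2% of the total, against 3.42% at E11.5. Lhx9 was detected in 58.3% of E10.5 CE cells and Gata4 in 38.5%, against 88.1% and 62.2% at E11.5.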
